A study of Mus musculus with 9 samples.

Results

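A set of 9 genes of the fibroblast growth factor (FGF) pathway was followed in MyoD1 binding data from C2C12, a mouse skeletal muscle myoblast line. They are the receptors Fgfr1, Fgfr2, Fgfr3 and Fgfr4, the kinase-less receptor Fgfrl1, the Sprouty inhibitors Spry1, Spry2 and Spry4, and the ERK phosphatase Dusp6. The genes were selected by name with earlier results of these data known, and their binding regions were chosen by position: every called peak that overlapped a gene body (mm10, GENCODE M21) or the 25 kb on either side. Peaks of all 6 lists that overlapped or touched were merged, which gave 186 regions holding 360 peaks, of 58309 regions and 116126 peaks in the whole series. The choice used each region's position and its being called, and the tall intergenic site beside Fgfr4 was picked for its height, so those facts are given as a description and support nothing further.

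The cells were of 1 clone, in which endogenous MyoD1 carries a 3xF-HaloTag and additional 3xF-Halo-MyoD1 transgenes are switched on by doxycycline (dox) from a TRE3G promoter. Both groups were placed in differentiation medium for 6 h, the no dox group without the drug and the +dox group with it for the same 6 h. MyoD1 was mapped by CUT&RUN, in which an antibody (here against Flag) tethers a nuclease that releases the bound DNA, so tagged endogenous and induced protein are read together. Each group had 3 libraries, described as biological replicates. The 3 libraries from untagged wild-type cells were not analysed here, so no background of the antibody stands beside these values. Peak lists hold no expression, so the cell type could not be checked against marker genes. The material was bulk chromatin: more cells with MyoD1 at a site and more MyoD1 per cell cannot be told apart.

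FGFs bind receptor tyrosine kinases that signal through RAS and ERK, and in myoblasts this signal is known for sustaining proliferation and holding back differentiation. Fgfr1 and Fgfr4 are the receptors best known from myogenic cells, and Fgfr4 is prominent in embryonic muscle precursors and regenerating muscle. Sprouty proteins and Dusp6 are induced by the pathway and damp it, the former upstream of ERK and the latter by dephosphorylating ERK itself. MyoD1 is a basic helix-loop-helix factor that binds E-boxes (CANNTG), with CAGCTG the form it is best known for.

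One gene model decides how many regions the rule takes in. GENCODE M21 lists 27 transcripts of Fgfr2, and 1 of them stretches the gene from chr7:130162451 to 133123350, a length of 2.96 Mb. RefSeq gives the same gene 104 kb (chr7:130162451-130266808). The long model runs over or beside 30 other protein-coding genes, and 139 of the 186 regions lay beyond the RefSeq extent plus 25 kb. Of those 139 regions, 99 had their maximum inside another coding gene, most often Tacc2 with 16, Lhpp with 14 and Htra1 with 13. Counts are therefore given for the rule as stated and for the 47 regions, holding 103 peaks, that remain with the RefSeq extent of Fgfr2.

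The sequence under the tallest regions is shown first, since it carries some of the E-boxes described further on. These are the 5 regions with the highest mean height percentile over the 6 libraries, 200 bases around the maximum on the forward strand of mm10 (read from RefSeq's GRCm38.p6). Capitals mark CAGCTG and CAGGTG (or its reverse complement CACCTG).
Tall intergenic site near Fgfr4, chr13:55171526-55171725: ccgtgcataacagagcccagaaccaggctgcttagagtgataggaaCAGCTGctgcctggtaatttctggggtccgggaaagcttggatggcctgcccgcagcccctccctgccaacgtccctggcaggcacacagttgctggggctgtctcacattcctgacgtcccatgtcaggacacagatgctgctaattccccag
3′ flank of Fgfr4, chr13:55169126-55169325: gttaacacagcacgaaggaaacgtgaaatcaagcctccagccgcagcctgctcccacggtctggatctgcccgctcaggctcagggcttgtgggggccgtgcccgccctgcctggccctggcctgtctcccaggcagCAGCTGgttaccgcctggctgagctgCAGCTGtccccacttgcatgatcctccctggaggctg
Long Fgfr2 model, site 39248 bp from the Chst15 start, chr7:132356376-132356575: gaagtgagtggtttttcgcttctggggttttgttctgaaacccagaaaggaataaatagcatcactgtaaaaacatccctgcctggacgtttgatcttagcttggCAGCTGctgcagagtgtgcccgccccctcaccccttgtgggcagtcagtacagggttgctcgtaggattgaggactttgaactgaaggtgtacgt
Long Fgfr2 model, intron of Tacc2, chr7:130673476-130673675: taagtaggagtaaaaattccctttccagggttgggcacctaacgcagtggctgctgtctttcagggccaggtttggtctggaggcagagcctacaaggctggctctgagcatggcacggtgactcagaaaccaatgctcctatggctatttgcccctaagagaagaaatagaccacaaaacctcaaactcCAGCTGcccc
Distal 3′ site of Fgfr4, chr13:55190176-55190375: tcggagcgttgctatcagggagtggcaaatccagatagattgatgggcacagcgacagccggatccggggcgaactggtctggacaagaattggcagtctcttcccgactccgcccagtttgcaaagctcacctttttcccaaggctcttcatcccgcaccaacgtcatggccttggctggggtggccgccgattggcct
A sixth stretch, from just upstream of the Spry2 start and chosen after its values were seen, is shown because no CAGCTG was found there.
Upstream of Spry2, chr14:105897276-105897475: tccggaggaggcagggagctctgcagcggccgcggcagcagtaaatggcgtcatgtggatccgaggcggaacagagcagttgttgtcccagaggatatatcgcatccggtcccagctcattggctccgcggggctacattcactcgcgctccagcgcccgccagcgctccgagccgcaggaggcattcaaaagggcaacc
The 3′ flank of Fgfr4 holds 2 copies of CAGCTG, and the tall site and both stretches from chromosome 7 hold 1 each. Neither the distal 3′ site nor the Spry2 stretch contained a capitalised hexamer.

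The libraries differed in depth and list length. They held between 2868000 and 8030000 alignments, as recovered from the step of the signal, and between 9389 and 13877 peaks, except +dox replicate 3 with 53661. That library alone supplied 28 of the 47 regions (59.6%), close to its 59.2% of all regions in the series. Signal is the maximum coverage of a peak in CPM (alignments scaled to library size), and the height percentile is the rank of that maximum within the library's own list. The median maximum was 1.49 CPM in +dox replicate 3 and 3.00 to 8.37 CPM in the other lists. A weak peak therefore gets a higher percentile in +dox replicate 3, and its percentiles do not compare directly with the others. The 33 of the 47 regions called in a single library stood on 6 to 34 alignments, so at such heights a missing call does not show that MyoD1 was absent.

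Fgfr4 held the strongest MyoD1 binding of the 9 genes, and the maxima of its 3 shared regions (called in all 6 libraries) lay past the 3′ end of the gene. The tall site (chr13:55170201-55172950) began 1441 bp beyond the annotated end of Fgfr4 (chr13:55152640-55168759, forward strand) and lay in intergenic sequence, its maximum 2867 bp past that end. In the no dox libraries its maximum signal was 319, 375 and 127 CPM, and in the +dox libraries it was 856, 588 and 264 CPM. It was the tallest peak of its list in no dox replicates 1 and 3 and in +dox replicates 1 and 2, and it ranked 2 in +dox replicate 3 and 3 in no dox replicate 2. By mean height percentile it ranked 1 of the 58309 regions. The 6 maxima rested on from 592 alignments in no dox replicate 3 to 2456 in +dox replicate 1. The lowest +dox value fell below the 2 highest no dox values, so the groups overlapped.

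**Figure D1:**
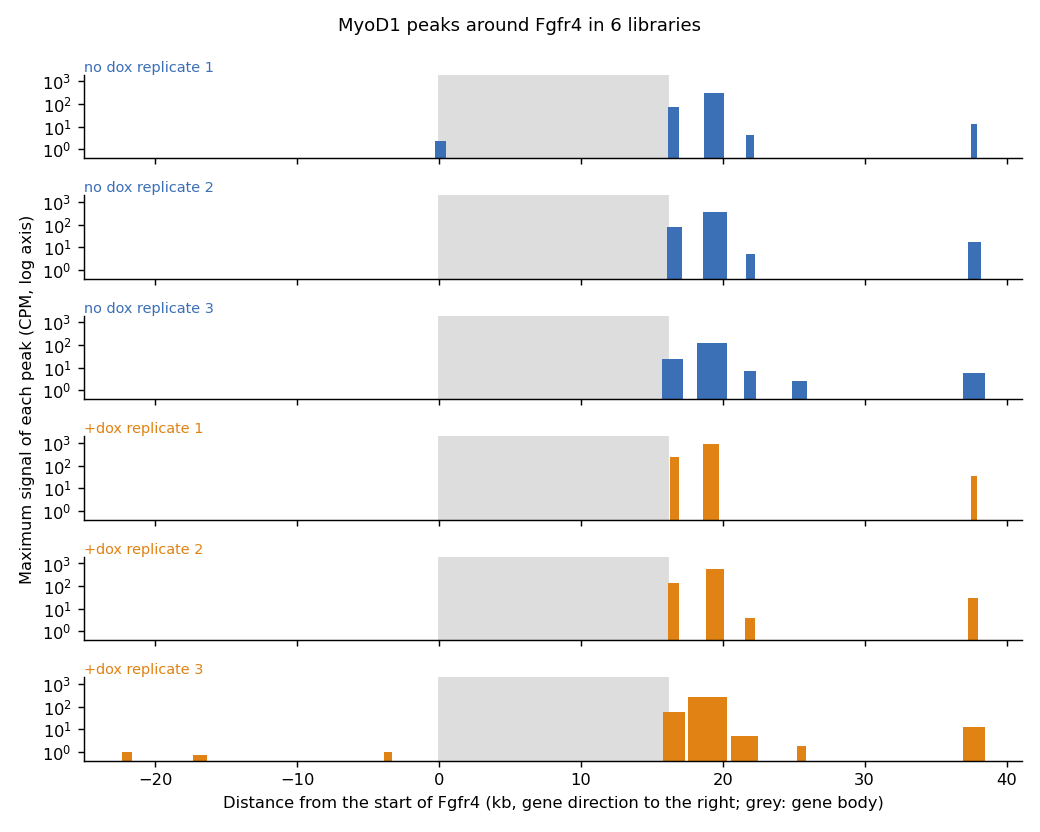
Peaks around Fgfr4 in each library, with position as distance from the gene start (kb), bar width as peak width and bar height as maximum signal (CPM, log axis). Grey marks the gene body. The tall site past the 3′ end reaches 319, 375 and 127 CPM without dox (blue) and 856, 588 and 264 CPM with dox (orange), and it is flanked by lower sites in the same libraries.

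The position of the tall maximum hardly moved. Its midpoints in the 6 libraries fell within 50 bp of each other, which is 1 step of the 50 bp grid of the peak lists, against a median span of 150 bp over all 4838 regions called in every library. Lower regions of the long Fgfr2 model were as tight or tighter. The span was 0 bp at the Chst15 site and in the Ctbp2 intron, 25 bp in the Lhpp intron and 50 bp at the Tacc2 start. A CAGCTG lay 51 bp upstream of the summit and another 163 bp downstream, and 6 CAGGTG matches were spread through the region, the nearest 335 bp away. Width differed more than position, from 1150 bp in +dox replicate 1 to 2750 bp in +dox replicate 3.

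Further sites flanked the tall one on the 3′ side of Fgfr4. The first, the 3′ flank (chr13:55168351-55170000), overlapped the last bases of the gene and had its maximum 467 bp past the end. Its signal was 71.2, 77.7 and 25.3 CPM without dox and 236, 134 and 60.0 CPM with dox. In each library it stood at a similar fraction of the tall site, between 19.9% and 27.6%. The distal 3′ site (chr13:55189551-55191100), whose maximum was 21517 bp past the gene end, had 13.5, 16.3 and 5.57 CPM without dox and 35.6, 30.6 and 12.5 CPM with dox. Its maximum is nearer to the start of Nsd1, 19506 bp away, than to that of Fgfr4. It too kept its proportion to the tall site, at 4.15% to 5.20% in the 6 libraries. In all 3 sites the libraries numbered 3 were the lowest of their group, whichever the treatment.

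A weaker site just beyond the tall one (chr13:55173251-55175100) was called in all 3 no dox libraries, at 4.19, 4.97 and 6.86 CPM, and in +dox replicates 2 and 3 at 3.89 and 5.23 CPM. It was not called in +dox replicate 1, where the tall site was highest. The Fgfr4 start itself was called in a single library, no dox replicate 1, at 2.33 CPM. The other 3 regions upstream of Fgfr4 were called only in +dox replicate 3, and a site 9567 bp past the gene end was called in no dox replicate 3 and +dox replicate 3.

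Fgfr1, the main FGF receptor of many mesenchymal cells, had 12 regions, of which 8 came from +dox replicate 3 alone. Only 1 was called in all 6 libraries (chr8:25596751-25598000), with 2.79, 3.61 and 2.14 CPM without dox and 11.9, 7.23 and 2.99 CPM with dox. That region is nearer to another gene: it lay past the 3′ end of Fgfr1 and 94 bp from the start of Letm2, which encodes a mitochondrial inner membrane protein. A second region, in an intron (chr8:25554451-25555200) 716 bp from an internal Fgfr1 start, was called in no no dox library and in all 3 +dox libraries, at 5.58, 5.00 and 2.49 CPM. These heights stood for 16, 18 and 20 alignments, at percentiles 29.7, 31.9 and 68.0 of their lists. Of the 47 regions this was the one with such a pattern, beside 1.09% of the regions of the series. At the start site 118 bp from its maximum, Fgfr1 was called in no dox replicate 1 (1.86 CPM) and in +dox replicates 1 and 3 (4.18 and 1.25 CPM).

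Fgfr2 had no reproducible call within its RefSeq extent plus 25 kb. All 6 regions there were called in +dox replicate 3 only, at 0.747 to 1.25 CPM, and none in the other 5 libraries. Fgfr2 is the receptor best known from epithelia. In the stretch that the long model adds, 10 regions were called in all 6 libraries, 8 of them with a maximum inside another coding gene. By mean height percentile the first, at 93.8 (chr7:132355301-132357400) lay 39248 bp from the nearest coding start, that of Chst15, with 21.4, 30.7 and 10.7 CPM without dox and 34.2, 33.4 and 35.1 CPM with dox. Next came a Tacc2 intron (chr7:130673051-130674050), at 89.4, with 14.9, 19.0 and 6.43 CPM without dox and 34.2, 23.9 and 27.9 CPM with dox. In both, every +dox value exceeded every no dox value.

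The remaining 8 shared regions of the long model ranked below these by mean height percentile, though not in the signal of every library. In the Ctbp2 intron (chr7:133085001-133086700) signal was 18.2, 17.6 and 7.29 CPM without dox and 12.6, 38.4 and 24.2 CPM with dox. At the Htra1 start (chr7:130935401-130937300) it was 9.31, 17.6 and 10.3 CPM without dox and 21.6, 17.2 and 12.7 CPM with dox. An Lhpp intron (chr7:132671801-132673200) had 11.2, 18.5 and 5.57 CPM without dox and 19.5, 28.9 and 9.21 CPM with dox. In these 3 regions the groups overlapped. At the Tacc2 start (chr7:130645451-130647450) the values were 8.84, 9.93 and 3.86 CPM without dox and 29.3, 12.0 and 12.0 CPM with dox. The intron of 5430419D17Rik (chr7:131178751-131180600) had 5.58, 8.13 and 6.86 CPM without dox and 17.4, 12.8 and 13.2 CPM with dox. In both of those the groups did not overlap. The last 3, at the starts of Ate1 (chr7:130518001-130520550), Acadsb (chr7:131409751-131411850) and Ctbp2 (chr7:133121351-133124700), stayed between 1.71 and 5.58 CPM without dox and between 2.24 and 15.3 CPM with dox. All 3 had overlapping groups.

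A further 3 regions of the long model were called in every +dox library and in no no dox library. One (chr7:130855601-130856350), 9855 bp from the start of Plekha1, had 6.97, 7.79 and 2.99 CPM. One inside Htra1 (chr7:130982251-130982900) had 11.2, 3.89 and 5.73 CPM, and one inside Eef1akmt2 (chr7:132841201-132841750) had 8.37, 17.8 and 7.97 CPM.

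**Figure D2:**
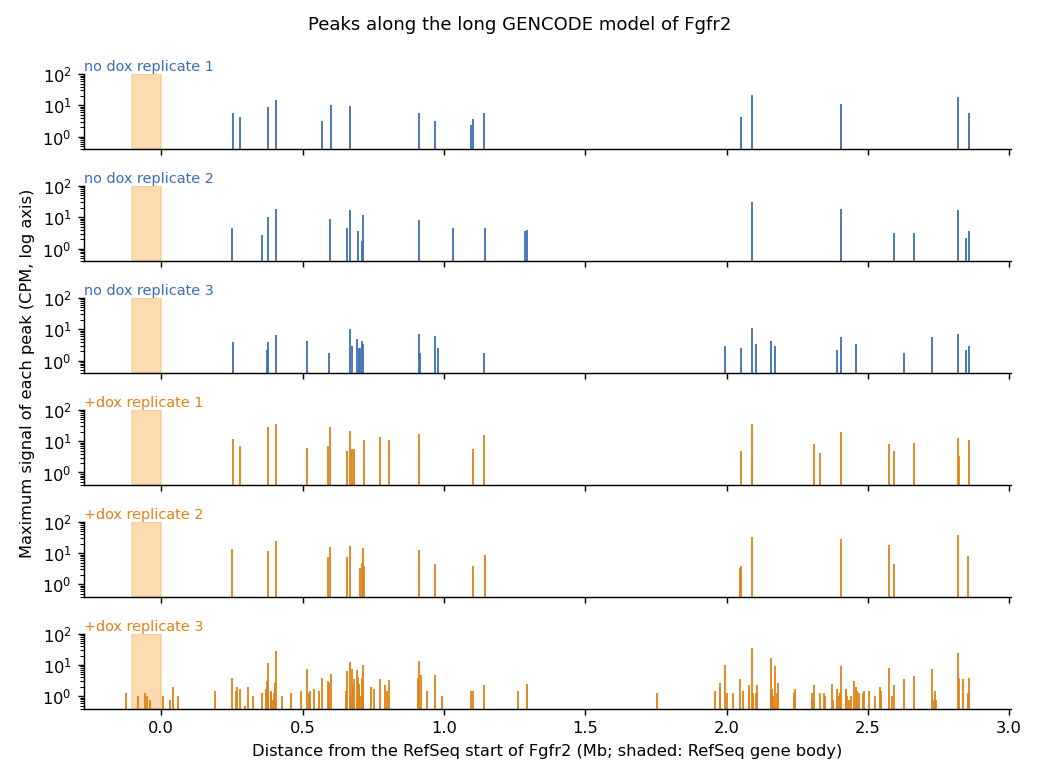
Peaks along the long GENCODE model of Fgfr2, with position as distance from the RefSeq start (Mb) and line height as maximum signal (CPM, log axis), in 6 libraries. The shaded RefSeq gene body holds peaks in +dox replicate 3 only, and the peaks shared by all 6 libraries lie outside it.

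Fgfr3 and the decoy receptor Fgfrl1, which binds FGFs but lacks the kinase domain, had no region in all 6 libraries. Fgfr3, a receptor best known from cartilage, had 3 regions, with the tallest by percentile 598 bp upstream of its start (chr5:33720551-33721500) and called in +dox replicate 3 alone at 3.49 CPM. Another (chr5:33732901-33735600) was called at 8 alignments in no dox replicate 2 and in +dox replicate 3, 1.81 and 0.996 CPM. The third, 431 bp from a start of Fgfr3, was called in +dox replicate 1 alone. It was higher in signal, at 4.18 CPM, though at percentile 16.0 of that list. At Fgfrl1 the leading region (chr5:108693801-108694850) sat 154 bp from a start site and was called at 3.16 CPM in no dox replicate 2 and at 8.37 and 2.99 CPM in +dox replicates 1 and 3. Its other 4 regions were each called in 1 library.

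Spry2 and Spry4 had a region called in every library at or just upstream of their starts, and Spry1 did not. At Spry2 (chr14:105891947-105896819, reverse strand) the region chr14:105895851-105899450 had its maximum 557 bp upstream of the start, in the library of its highest percentile. The no dox consensus region there (chr14:105896851-105899100) lay just upstream and did not cover the start. Signal was 8.84, 11.3 and 1.71 CPM without dox and 33.1, 13.3 and 11.0 CPM with dox. The low value of no dox replicate 3 was a pileup of 8 alignments at percentile 14.9, against percentiles of 74.2 and 84.5 in the other no dox libraries. The groups overlapped, since no dox replicate 2 stood above +dox replicate 3. The maxima of the 6 libraries at Spry2 were spread over 1325 bp, the widest span of the 16 regions, where the tall Fgfr4 site had 50 bp.

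At Spry4 on chromosome 18 the region chr18:38600251-38602350 had its maximum 61 bp upstream of the start. Signal was 3.72, 5.42 and 2.14 CPM without dox and 13.2, 9.45 and 6.72 CPM with dox, so every +dox value exceeded every no dox value. Of the 6 shared regions kept with the RefSeq extent, it was the only one without overlap, 16.7%. By the rule it was 5 of 16, 31.2%, beside 27.5% over all 4838 shared regions of the series. The 3 other Spry4 regions were called in +dox replicate 3 alone. Spry1 had 1 region in its window, 14346 bp past the start (chr3:37654151-37654700), also in +dox replicate 3 alone, at 4.23 CPM and percentile 81.1 of that list.

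Dusp6, whose product is a cytoplasmic ERK phosphatase, had a merged region over its start that was called in 5 of 6 libraries (chr10:99260951-99264200). With dox it split into 2 consensus regions, chr10:99260951-99262400 upstream of the start and chr10:99262501-99264200 over it. Each value below is the highest of a library's peaks in the merged region, so it need not lie at the start. Signal was 2.79 and 4.06 CPM in no dox replicates 1 and 2 and 9.07, 11.1 and 2.49 CPM in +dox replicates 1, 2 and 3. It was not called in no dox replicate 3, and the +dox replicate 3 value lay below both no dox values. The maximum stood 105 bp upstream of the annotated start, in the library of its highest percentile.

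**Figure D3:**
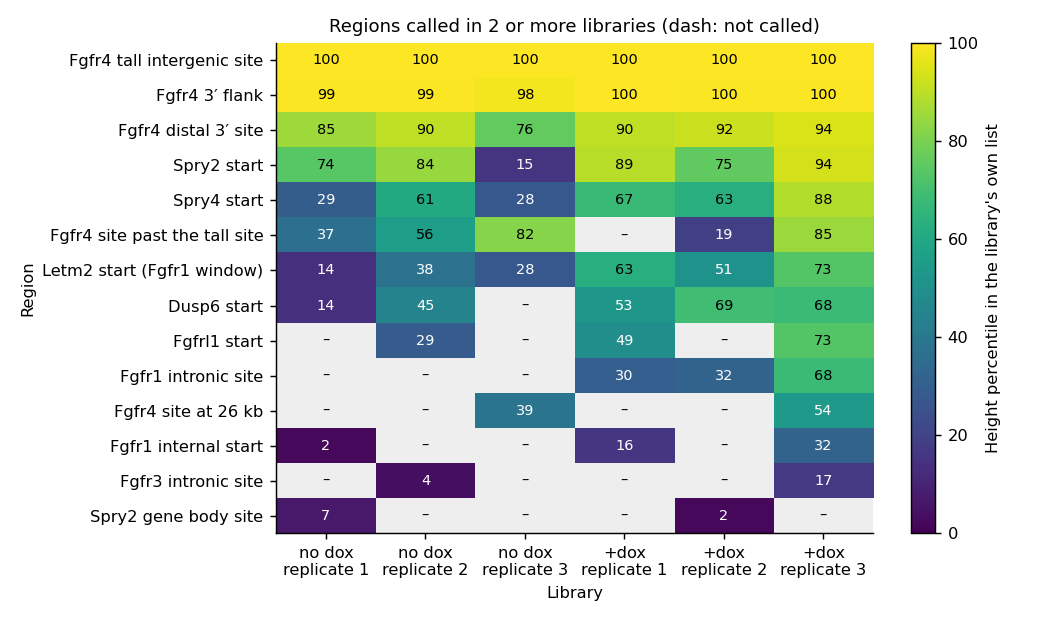
Height percentile of each of the 14 regions called in 2 or more libraries (rows) within each library's own list (columns), with dashes where no peak was called. The tall Fgfr4 site is at 100 in all 6 libraries to the nearest whole number, and the Spry2, Spry4 and Dusp6 starts range from low to high percentiles.

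A region's maximum is taken here from the library of its highest percentile. Of the 6 shared regions, the 3 at Fgfr4 had it past the 3′ end and the 2 at Spry2 and Spry4 within 1 kb of the gene's start. Of the 14 regions called in 2 or more libraries, 7 had a maximum within 1 kb of an annotated start of their own gene, 4 of them at receptor genes (2 at Fgfr1 and 1 each at Fgfr3 and Fgfrl1) and 3 at Spry2, Spry4 and Dusp6. The edge of the windows mattered for Fgfr1: the shared region by Letm2 lay 21032 bp from the gene, and another shared region with a mean percentile of 78.5 lay just outside, at 25332 bp.

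Calls by group were compared with the study's own threshold of 2 of 3 libraries. In the 9 windows there were 24 consensus regions without dox and 44 with dox, and with the RefSeq extent of Fgfr2 there were 8 and 12. A +dox consensus region was called expanded where it overlapped no consensus region of the no dox group. By the rule 20 of 44 were expanded (45.5%) and with the RefSeq extent 3 of 12, beside 38.5% of the 13908 +dox consensus regions of the series. The 3 were the intronic and the start-site regions of Fgfr1 and the start of Fgfrl1. No consensus region at Fgfr4, Spry2, Spry4 or Dusp6 was expanded at this setting. Without no dox replicate 1 or without no dox replicate 2 the count with the RefSeq extent was 5, Dusp6 included, and with windows of 50 kb it was 8, Fgfr4 included. Without +dox replicate 3 the expanded region left was 1, at Fgfr1, and without +dox replicate 1 it was also 1, at Fgfr1. A group with a library left out still needed 2 calls, now of 2 libraries. These counts therefore mix the loss of a library with a stricter threshold in its group. When any single no dox peak counted as overlap, 1 region at Fgfr1 was left.

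Peak height in CPM at the shared regions of these genes was higher with dox, by amounts near those of the rest of the series. Depth differed as well, with 2868000, 3597000 and 8030000 alignments in +dox replicates 1, 2 and 3 and 4297000 to 4667000 without dox. CPM is relative to library size, so a shift of a whole library cannot be told apart from more binding. The part played by depth was not tested. All 16 shared regions had a higher mean log2 signal with dox, by 0.50 to 1.61 with a median of 1.06. Over all 4838 shared regions the median was 0.91, and 96.1% were higher. With the RefSeq extent of Fgfr2 the 6 regions had a median of 1.23, which was 0.75 without no dox replicate 3, where the series stood at 0.68. In limma without a block, none of the 16 passed (adjusted p from 0.203 to 0.479) and 3 had an unadjusted p below 0.05. Over the series 0 regions were called higher (0%) and 0 lower (0%), with 1173 at an unadjusted p below 0.05.

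Deviations from the group means correlated positively within each replicate number, most clearly for the libraries numbered 3 and hardly more than across numbers for those numbered 2, and the fit with the replicate number as a block is given beside the unblocked one. The unblocked fit was the planned test, and the block was an alternative with pairs taken from these same values. In the planned fit none of the 6 regions kept with the RefSeq extent passed (limma adjusted p from 0.203 to 0.236). In limma with the block, 11 of 16 regions were called higher with dox, and all 6 of those kept with the RefSeq extent, beside 53.5% of the series. Spry2 differed by 1.61 ± 0.39 (SE, limma adjusted p = 0.000813) and Spry4 by 1.43 ± 0.39 (SE, limma adjusted p = 0.00233). The SE of this fit was 0.39 at all 16 regions, a spread pooled over the series. Neither it nor the adjusted p measures the spread of a region's own pairs. The size at Spry2 rested on no dox replicate 3: without that library it was 0.76, below Spry4 at 1.07 and the Letm2 start at 1.00, and on replicates 1 and 2 only it was 1.07 and did not pass with the block (limma adjusted p = 0.0527). The 3′ flank of Fgfr4 rose by 1.26 ± 0.39 (SE, limma adjusted p = 0.00641), the Letm2 start by 1.19 ± 0.39 (SE, limma adjusted p = 0.00934) and the distal 3′ site of Fgfr4 by 1.16 ± 0.39 (SE, limma adjusted p = 0.0111). In this fit the tall site rose least of the 6, by 1.04 ± 0.39 (SE, limma adjusted p = 0.0206). By log2 total signal the Letm2 start was the lowest, at 0.49 against 0.71 at the tall site. In maximum signal it was also the lowest without no dox replicate 1, at 1.19 against 1.23. Without no dox replicate 3 the 3′ flank stood at 0.74, the distal 3′ site at 0.69 and the tall site at 0.56, and without +dox replicate 1 they stood at 0.79, 0.87 and 0.67, with the Letm2 start at 0.74. With no block, all 6 passed without +dox replicate 3, where 1955 of 4838 regions of the series were called higher, and none of the 6 passed when any of the other 5 libraries was left out. The SE without +dox replicate 3 was again pooled, 0.58 at all 16 regions. In the unblocked fit of all 6 libraries it ran from 0.54 to 0.67.

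The shared regions of the series moved together. When each library was centred on its median over the shared regions, the differences of the 6 shrank to between 0.12 and 0.68, and none passed in limma with or without the block (adjusted p from 0.524 to 0.986). Across the series the centred fit called 0 regions higher (0%), with 123 at an unadjusted p below 0.05. Among the differences of all 4838 shared regions, Spry2 stood at percentile 94.0, Spry4 at 87.4 and the tall Fgfr4 site at 61.1. Without no dox replicate 3 the same percentiles were 58.2, 83.9 and 37.9. No difference between these genes and the rest of the series was tested. For the tall site alone, mean signal was 274 ± 130 CPM without dox and 570 ± 296 CPM with dox (SD, n = 3), and the difference of 1.04 on the log2 scale had an exact two-sided permutation p of 0.300, where 3 against 3 libraries cannot go below 0.1.

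**Figure D4:**
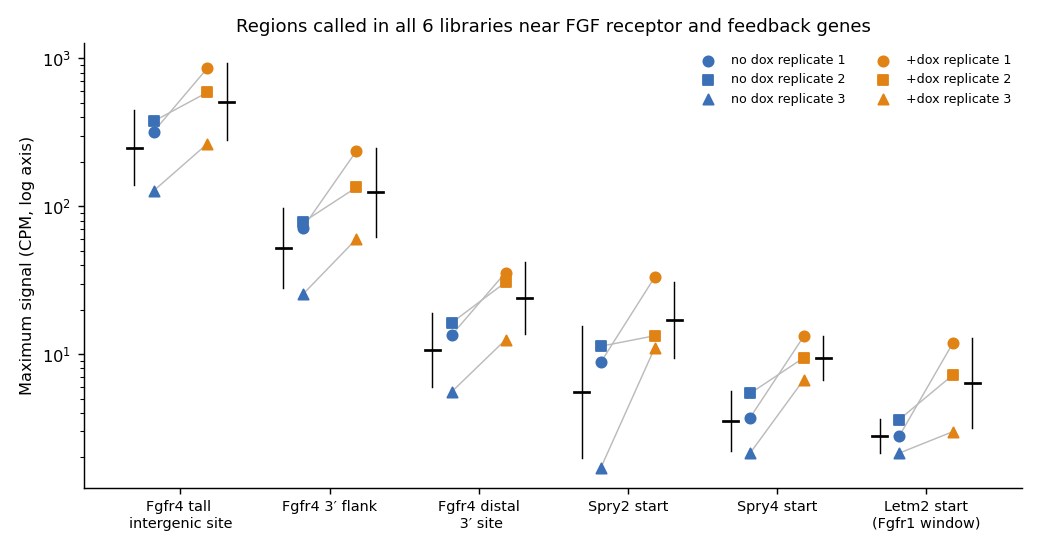
Maximum signal (CPM, log axis) of the 6 shared regions in each library, blue without and orange with dox, with marker shape for the replicate number and grey lines joining equal numbers. Black bars give the mean and SD of log2 values (n = 3). All 3 same-numbered pairs rise at each of the 6 regions, while the groups overlap at 5 of them. The share of the series with all 3 pairs rising was not computed, and 96.1% of its 4838 shared regions were higher in mean.

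**Figure D5:**
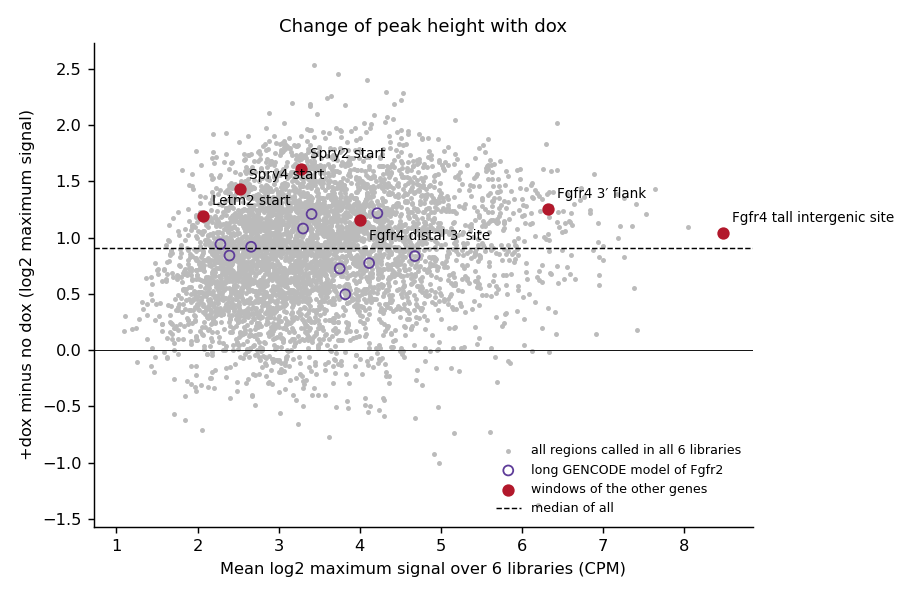
Difference of log2 maximum signal, +dox minus no dox, against mean log2 signal for the 4838 regions called in all 6 libraries (grey). Red points are the 6 shared regions with the RefSeq extent of Fgfr2, open circles those of its long model, and the dashed line is the series median of 0.91. Spry2 is at 1.61, or 0.76 without no dox replicate 3, Spry4 is at 1.43, and the tall site has the highest level.

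CAGCTG was about as frequent in these regions as in the series. The motif, which reads the same on both strands, was in 126 of the 186 regions extended by 100 bp (67.7%) and in 29 of the 47 (61.7%), beside 64.1% of all 58309 regions. Among shared regions it was in 4 of 6 with the RefSeq extent and in 10 of 10 of the long model, beside 85.4% in the series. The 3′ flank of Fgfr4 held 5, the tall site 2, the distal 3′ site 1 and the Spry4 start 2. The region at the Spry2 start, 3600 bp wide, held none and 2 CAGGTG matches, and the Letm2 start held neither. In the promoters of RefSeq's table (250 bases before to 50 after the start), 7 of the 9 genes were matched, and CAGCTG was found at Fgfr3 alone, beside 16.3% of all promoters. The AP-1 motif TGANTCA was in 27.7% of the 47 regions and 38.1% of the series. A match or its absence in these windows says nothing of what MyoD1 bound.

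The wider pathway was read the same way, by genes with a shared region in the gene body plus 25 kb. Longer genes have longer windows, so these shares are descriptions. Of the 9 genes 5 had one by the rule, Fgfr2 through its long model alone, beside 28.2% of all 21951 protein-coding genes. Of 72 other pathway genes found, 27 had one (37.5%). Among transcriptional targets it was 6 of 7, led by Fos, an immediate early gene, whose window held a region 22965 bp from its start with 38.6, 35.7 and 23.1 CPM without dox and 66.2, 66.2 and 44.8 CPM with dox. Other feedback inhibitors had one in 7 of 13, led by Dusp1, a nuclear MAP kinase phosphatase, whose region lay 10000 bp from the start of Ergic1, at 14.9, 21.7 and 34.3 CPM without dox and 44.6, 31.4 and 33.6 CPM with dox.

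Ligands had a shared region in 6 of 22 genes, led by Fgf11. Its tallest one, however, lay 83 bp from the start of Chrnb1, which encodes a subunit of the muscle acetylcholine receptor. Co-receptors and matrix partners had one in 3 of 12, led by Sdc4, a heparan sulfate proteoglycan, 10210 bp from its start. Adaptors and kinases had one in 5 of 18, led by Shc1, where the region lay 48 bp from the start of Zbtb7b. In mean height percentile these leading regions ranged from 92.1 at Shc1 to 97.7 at Fos, all below the tall Fgfr4 site.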

How the data were processed

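CUT&RUN for Flag was analysed in 6 libraries, 3 no dox and 3 +dox. The authors aligned reads to mm10 with the nf-core CUT&RUN pipeline, normalized coverage to CPM, removed blacklisted regions and called peaks in each library with SEACR in relaxed mode. The deposited lists give the total and the maximum signal (coverage in CPM) of each peak. The members and gene lists were chosen with earlier results of these data known.

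Peaks were merged over the 6 lists, and over each group with 2 of 3 libraries required. Depth was recovered from the step of the maximum signal, of which 100% of values were whole multiples within 0.02 of a step. Since one alignment is worth one step, depth and pileups cover counting error only. Pileups of low regions were nearly all even, such as 16, 18 and 20 at the Fgfr1 intronic region. Both mates of a pair therefore probably count, and fragments would be fewer than alignments. No peak lay past a chromosome end of GRCm38. Log2 maximum signal of regions called in all 6 libraries was tested with limma 3.58.1 (R 4.3.3) over the whole series with Benjamini-Hochberg adjustment, at 0.05, after a test on simulated data. The named genes are the 9 members with their highest, shared and group-exclusive regions, and the leading gene of each other role. Same-numbered libraries had correlations of deviations from their group means of 0.485, 0.267 and 0.628, all above 0.1, and were taken as pairs on this evidence alone, since the labels name no shared day or batch. Across numbers, no dox replicate 1 with +dox replicate 2 gave 0.265 and no dox replicate 2 with +dox replicate 1 gave 0.219, so numbers 1 and 2 were poorly told apart, while those numbered 3 correlated negatively with the others. Alternatives were leaving out each library, the block, other scalings, thresholds, windows and motif settings.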

Additional observations from a re-analysis of the deposited data

How the results depend on the processing

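Consensus regions with dox in the 9 windows fell from 44 to 27 without +dox replicate 3, to 26 with lists of equal length, to 27 with 3 of 3 libraries and to 12 with the RefSeq extent of Fgfr2, a setting chosen after seeing the data that left 8 of 24 without dox. Leaving out each library in turn gave 27 to 44 with dox and 19 to 24 without. Such a group still needed 2 libraries, now 2 of 2, so its threshold was stricter in every count with a library left out. Expanded regions, 20 by the rule, came to 7 with lists of equal length, 11 with 3 of 3 libraries, 10 where any no dox peak counted as overlap and 3 with the RefSeq extent, and ranged from 7 to 25 when each library was left out, with 8 without +dox replicate 1 and 7 without +dox replicate 3. With the replicate number as a block, limma called 2589 shared regions in either direction against 0 without it. Leaving out each library gave 0 to 1960, the latter without +dox replicate 3. On replicates 1 and 2 only, added after seeing the data, it called 1712, and 1931 with the block. In each fit with calls, the shared regions of the 9 windows all had the same SE, pooled over the series. No scaling gave a call without the block, and median centring with the block, also added later, gave 0.

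For single regions, the 6 kept with the RefSeq extent kept their direction, apart from the tall site, which stood at 0.00 in height percentile and quantile normalization, since it ranked 1 to 3 in every list. In the long Fgfr2 model, median centring, with or without the block, turned the difference to -0.01 at Ate1, -0.43 at Htra1, -0.09 at the Chst15 site, -0.20 in Lhpp, -0.15 in the Ctbp2 intron and -0.09 at the Ctbp2 start. Quantile normalization gave -0.50 at Htra1, -0.21 at the Chst15 site, -0.24 in Lhpp and -0.20 in the Ctbp2 intron, and the height percentile differed by -0.02 at Htra1 and -2.77 in the Ctbp2 intron. The cause of each was not tested. The tall site itself ranged from 0.56 to 1.52 when each library was left out, the lowest without no dox replicate 3 and the highest without +dox replicate 3, was 1.04 in the paired sign-flip test (exact p = 0.25, the smallest 3 pairs allow) and 0.12 after median centring. CAGCTG was in 35.5% of the 186 regions within 100 bp of the maximum, and any CANNTG in 100%. Median height percentile of the shared regions was 81.8, with 82.4 by total signal and 80.1 with the RefSeq extent. Depth limits the low regions, where as few as 4 alignments made a peak.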
